A study of Homo sapiens with 12 samples.

Results

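The genes described here are 53 genes of the G2 phase and of mitosis, taken by symbol from the rows of the 3 deposited count matrices, where all 53 were found among 33514 gene symbols. The list is one of names and uses no measured value as a rule, although it was drawn up with earlier results of these data known. The matrices come from single-cell RNA sequencing (scRNA-seq) of 3 cell lines of head and neck squamous cell carcinoma, SCC1 (UM-SCC-1), SCC6 (UM-SCC-6) and SCC25, which the study selected as sensitive to cetuximab, a therapeutic antibody against the receptor EGFR. From 24 hours after plating, each line was given 100 nM cetuximab every day over 5 days, or buffer (PBS) in place of the antibody, in 2 replicates, which gave 12 samples in 6 groups. All samples had the same medium with serum, and no group carried another agent or a genetic change. The comparison asked how the early response to cetuximab appears in the genes that drive cells through division.

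As background, cells that have replicated their DNA activate the kinase CDK1 with a B-type cyclin, condense their chromosomes, build a spindle and attach it to the kinetochores. The anaphase-promoting complex with its activator CDC20 then marks mitotic proteins for degradation, and the cell divides. Many of the genes involved are transcribed together late in the cell cycle and are kept low in resting and G1 cells, and loss of growth factor signalling is known to hold epithelial cells in G1. MKI67 and TOP2A, both members, are widely used to count proliferating cells in squamous tumours.

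Late cell cycle promoters are known for a short motif, the cell cycle genes homology region (CHR), often beside CCAAT boxes. Promoter windows from RefSeq (GRCh38.p14, 250 bases before to 50 after each annotated start) matched 45 of the 53 members by symbol. HMGB2, UBE2C, BIRC5, TPX2, ANP32E, TTK, CDCA2 and AURKA had no window. CHR letters (TTTGAA or TTCGAA on either strand) occurred in 35 of the 45 (77.8%) and in 19.5% of the 27305 genes with a window. CCAAT on either strand occurred in 32 (71.1%), against 39.7% of all genes, and both motifs in the same window in 28 (62.2%), against 7.85%. An E2F-type site, which marks genes of the G1-to-S transition (TTTGGCGC, TTTCGCGC or TTTCCCGC on either strand), was present in 3 of the 45 (6.67%), against 3.30% of all genes. A match of letters is a description and not evidence that a factor binds. The 100 bases before the start are given for 8 members, with CHR and CCAAT letters in capitals. CDC20, CCNB2, HMMR and MKI67 show the arrangement of both motifs, and BUB1, LBR and GAS2L3 are the members of the 5 called lower across lines that have a window. TUBB4B is the member with the smallest change across lines.
CDC20 (chr1:43358881-43358980, plus strand): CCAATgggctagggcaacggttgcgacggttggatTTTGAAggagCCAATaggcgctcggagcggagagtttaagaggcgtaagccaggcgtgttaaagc
CCNB2 (chr15:59105046-59105145, plus strand): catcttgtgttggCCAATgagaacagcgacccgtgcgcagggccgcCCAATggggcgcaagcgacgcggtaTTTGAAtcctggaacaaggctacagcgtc
HMMR (chr5:163460532-163460631, plus strand): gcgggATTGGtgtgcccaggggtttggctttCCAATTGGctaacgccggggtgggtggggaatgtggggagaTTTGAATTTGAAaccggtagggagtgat
MKI67 (chr10:128126424-128126523, minus strand): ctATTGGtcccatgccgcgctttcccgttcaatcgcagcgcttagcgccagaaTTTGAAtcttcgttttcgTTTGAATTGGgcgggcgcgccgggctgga
BUB1 (chr2:110678064-110678163, minus strand): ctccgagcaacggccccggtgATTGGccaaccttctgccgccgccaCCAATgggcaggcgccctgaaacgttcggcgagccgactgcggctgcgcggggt
LBR (chr1:225428822-225428921, minus strand): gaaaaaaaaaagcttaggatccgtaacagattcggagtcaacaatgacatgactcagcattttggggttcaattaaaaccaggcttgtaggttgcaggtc
GAS2L3 (chr12:100593518-100593617, plus strand): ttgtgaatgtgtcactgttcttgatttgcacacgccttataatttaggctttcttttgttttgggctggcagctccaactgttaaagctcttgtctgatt
TUBB4B (chr9:137241187-137241286, plus strand): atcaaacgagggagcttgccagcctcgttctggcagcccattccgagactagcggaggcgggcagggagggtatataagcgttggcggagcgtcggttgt

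BUB1 held both motifs in its window, whereas LBR and GAS2L3 held neither. TUBB4B held CHR and CCAAT letters only farther upstream than the printed stretch. The 28 members with both motifs in a window had a median log2 fold change across lines of −0.65, and the 17 without both had −0.55. The medians with and without both were −1.09 and −0.90 in SCC1 and −0.49 and −0.31 in SCC25. In SCC6 the order was the other way, −0.37 with both and −0.48 without.

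The matrices held 23914 cells (5270 of SCC1, 9724 of SCC6 and 8920 of SCC25), 961 to 2854 cells per sample. Each sample had 57057402 to 112170073 unique molecular identifiers (UMIs), with medians of 24078.5 to 54864 UMIs per cell, the lowest in the first cetuximab replicate of SCC6. Any pair of samples shared 1 to 13 cell barcodes. Squamous epithelial markers were present in every sample, with 5 to 7 of 7 over 1 CPM (counts scaled to the same library total), and their summed level was lowest in SCC6, where the basal keratins KRT5 and KRT14 did not exceed 4.57 and 2.58 CPM. Endothelial markers summed to at most 0.67 CPM and leukocyte markers to 1.18 to 14.1 CPM. Fibroblast markers (5 genes) moved with treatment in SCC6, from 0.947 and 2.97 CPM in PBS to 23.0 and 27.8 CPM with cetuximab, and in SCC25, from 17.7 and 36.6 CPM to 40.8 and 77.7 CPM, and their part in the results was not tested. Of these genes, COL1A1, a collagen chain, reached 23.1 CPM in SCC6 with cetuximab, LUM, the proteoglycan lumican, reached 56.1 CPM in SCC25 with cetuximab, and DCN was at 2.25 CPM or less in all samples.

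Most of the G2 and mitosis genes had lower mean levels with cetuximab than in PBS in each of the 3 lines. For many of them the samples of the 2 groups overlapped in SCC6 and SCC25. Levels of single genes are given as CPM after scaling of the libraries by the trimmed mean of M values (TMM), each in the order of replicate 1 and 2. Across lines, all 53 members had a log2 fold change below 0, from −0.87 for CENPE to −0.20 for TUBB4B, with a median of −0.65, while the median over all 17897 genes tested was 0. In the edgeR quasi-likelihood test with Benjamini-Hochberg adjustment over all genes, 5 members fell (HMGB2, TPX2, BUB1, LBR and GAS2L3, named here after their values were seen) and none rose. Of all genes tested, 1.13% fell. Samples of equal replicate number deviated together, and with the replicate number within a line as a block 41 members fell, against 5.55% of all genes. An unadjusted p under 0.05 was reached by 44 members (21.0% of all genes, either direction). DESeq2 called 24 members lower (4.18% of all genes). Without the filter on low counts 22 members were called lower (1.28% of all genes), without the 5% of cells with most UMIs 12 (1.29%), and on cells thinned to 15000 UMIs 13 (1.56%). The level was lower with cetuximab in 6 of 6 pairs of equal number for 41 of the 53 members, against 10.6% of all genes. The count of 5 depended on single samples, since it ranged from 0 (without PBS replicate 2 of SCC6) to 10 (without cetuximab replicate 1 of SCC25) when each sample was left out in turn. The 2 samples of a group share a line and nothing in the labels says that they came from separate cultures, so the p-values measure the spread between these samples only.

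**Figure D1:**
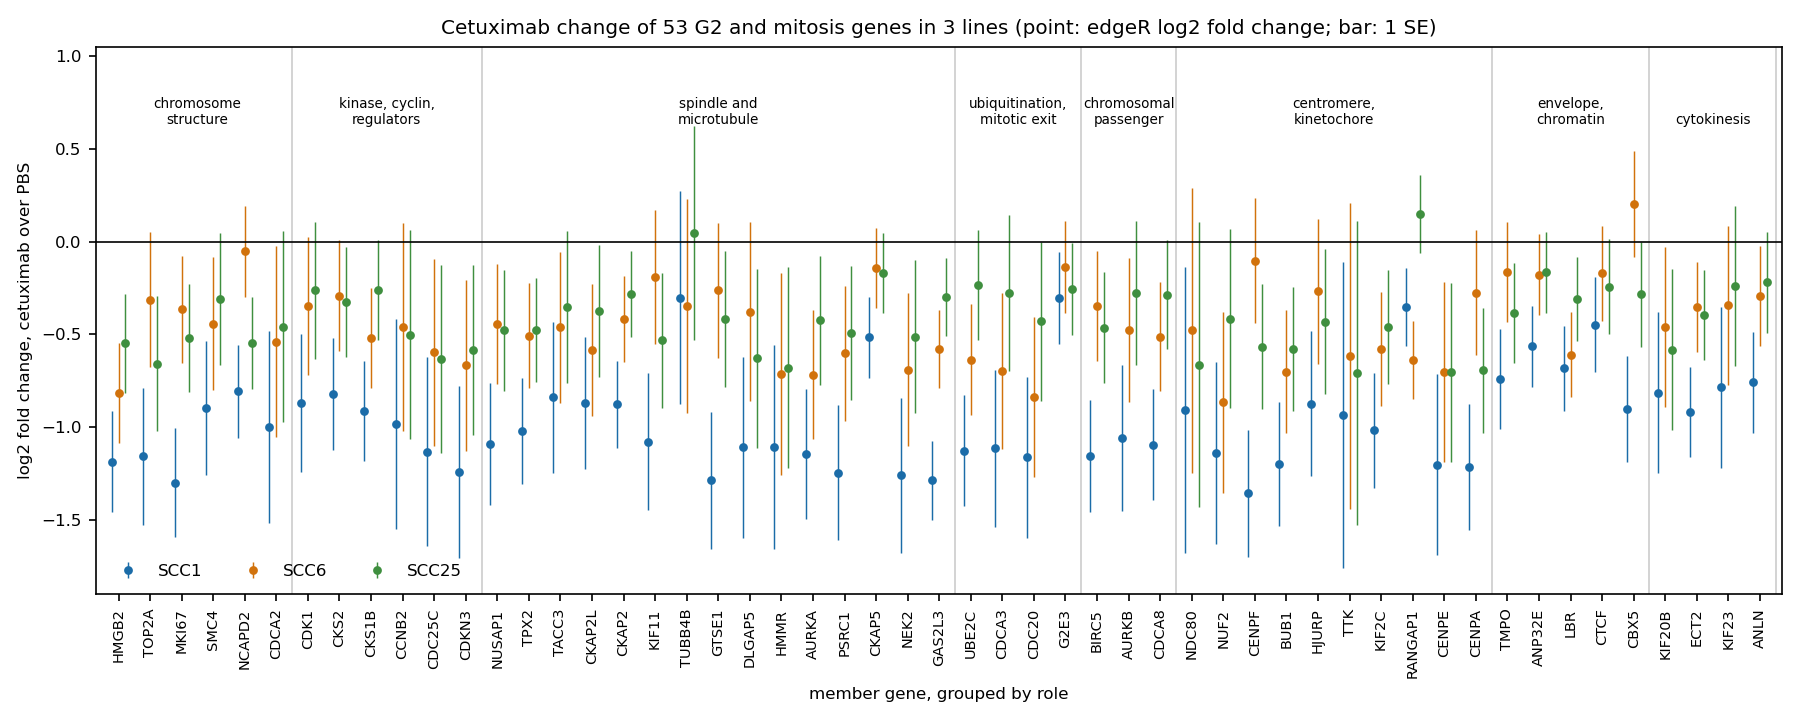
Cetuximab change of each of the 53 members, grouped by role, in SCC1, SCC6 and SCC25 (y axis, log2 fold change of cetuximab over PBS; points, edgeR estimates from 2 against 2 samples; bars, 1 SE). All 53 points of SCC1, 52 of SCC6 and 51 of SCC25 lie below 0, and the SCC1 points reach −1.36.

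Chromosome structure genes (6 members: HMGB2, TOP2A, MKI67, SMC4, NCAPD2 and CDCA2) had median log2 fold changes of −1.08 in SCC1, −0.40 in SCC6 and −0.53 in SCC25. Across lines 1 of the 6 fell in the fit without the block and 5 with it. HMGB2, a chromatin protein that bends DNA, gave the clearest result of all members. HMGB2 stood at 287 and 324 CPM in the PBS samples of SCC1 against 94.1 and 174 CPM with cetuximab, at 291 and 344 against 160.0 and 200.2 CPM in SCC6, and at 172 and 178 against 126 and 114 CPM in SCC25. The groups of all 3 lines did not overlap (log2 fold change across lines −0.85 ± 0.16 (SE), adjusted p = 0.0173, or 0.0114 with the replicate block). MKI67 encodes the Ki-67 protein that coats mitotic chromosomes. MKI67 stood at 180.2 and 169.7 CPM in the PBS samples of SCC1 against 53.7 and 88.4 CPM with cetuximab, at 135 and 149.6 against 119 and 102 CPM in SCC6, and at 143 and 107 against 108 and 66.9 CPM in SCC25. Both SCC1 cetuximab samples were below their controls, and the SCC25 groups overlapped (log2 fold change across lines −0.73 ± 0.19 (SE), adjusted p = 0.0608, or 0.0347 with the replicate block). SMC4, a core subunit of condensin, separated the groups in SCC1 but not in SCC6 or SCC25. SMC4 stood at 253 and 345 CPM in the PBS samples of SCC1 against 105 and 216 CPM with cetuximab, at 154 and 218 against 109.9 and 164 CPM in SCC6, and at 191 and 274 against 174 and 201 CPM in SCC25. With log2 fold change across lines −0.55 ± 0.20 (SE), adjusted p = 0.145, or 0.0307 with the replicate block, its fall passed the test in the block only. NCAPD2, another condensin subunit, was one of the members with the smallest change in SCC6, at −0.05 ± 0.25 (SE; adjusted p = 0.945, 0.823 with the block), and TOP2A, the topoisomerase that untangles sister chromatids, had −1.16 ± 0.37 (SE; adjusted p = 0.370, 0.0136 with the block) in SCC1.

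The kinase CDK1, its partners and its regulators (CDK1, CCNB2, CKS1B, CKS2, CDC25C and CDKN3) had medians of −0.95 in SCC1, −0.49 in SCC6 and −0.41 in SCC25, with none of 6 fallen across lines without the block and 4 with it. CKS1B and CKS2 are small proteins that bind cyclin-dependent kinases. CKS1B stood at 557 and 512 CPM in the PBS samples of SCC1 against 231 and 336 CPM with cetuximab, at 585 and 599.9 against 409.8 and 417 CPM in SCC6, and at 682 and 494 against 609 and 371 CPM in SCC25. These values were lower with cetuximab in both pairs of every line (log2 fold change across lines −0.56 ± 0.16 (SE), adjusted p = 0.0742, or 0.0266 with the replicate block). CKS2 stood at 152 and 162 CPM in the PBS samples of SCC1 against 65.5 and 112 CPM with cetuximab, at 365 and 619 against 394 and 410.0 CPM in SCC6, and at 484 and 418 against 406 and 314 CPM in SCC25. The second SCC6 control stood far above the first, so that the SCC6 groups overlapped (log2 fold change across lines −0.48 ± 0.17 (SE), adjusted p = 0.138, or 0.0669 with the replicate block). CDKN3, a phosphatase that acts on CDK1 and CDK2, and CCNB2, a B-type cyclin, had log2 fold changes across lines of −0.83 ± 0.26 (SE) and −0.65 ± 0.31 (SE), each past the threshold with the block only (adjusted p = 0.0244 and 0.0386).

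Spindle and microtubule genes formed the largest group (15 members), with medians of −1.09 in SCC1, −0.46 in SCC6 and −0.42 in SCC25. Across lines 2 of the 15 fell (TPX2 and GAS2L3), and 11 with the block. TPX2 activates Aurora kinase A at the spindle. TPX2 stood at 89.6 and 108 CPM in the PBS samples of SCC1 against 33.3 and 63.99 CPM with cetuximab, at 176 and 217 against 136 and 141 CPM in SCC6, and at 117 and 104 against 86.7 and 72.1 CPM in SCC25. The groups were apart in all 3 lines (log2 fold change across lines −0.67 ± 0.17 (SE), adjusted p = 0.0474, or 0.0187 with the replicate block). GAS2L3, which links actin filaments and microtubules, was a rare transcript. GAS2L3 stood at 10.7 and 11.1 CPM in the PBS samples of SCC1 against 3.81 and 5.14 CPM with cetuximab, at 9.12 and 10.001 against 6.49 and 6.29 CPM in SCC6, and at 5.85 and 5.18 against 4.83 and 4.14 CPM in SCC25. It had the smallest adjusted p of the members within SCC1, −1.29 ± 0.21 (SE; adjusted p = 0.0949, 0.00746 with the block), and across lines it fell (log2 fold change across lines −0.72 ± 0.17 (SE), adjusted p = 0.0364, or 0.0306 with the replicate block). TUBB4B, a beta-tubulin also used by interphase cells, had the widest spread between replicates shown here. TUBB4B stood at 653 and 739 CPM in the PBS samples of SCC1 against 536 and 592 CPM with cetuximab, at 239.5 and 1065 against 317 and 708 CPM in SCC6, and at 502 and 904 against 714 and 738 CPM in SCC25. The SCC6 controls lay far apart, and no fit called TUBB4B (log2 fold change across lines −0.20 ± 0.31 (SE), adjusted p = 0.768, or 0.707 with the replicate block). Its sign across lines turned in 1 of the 12 fits that left out a sample. AURKA, HMMR and NEK2, a spindle kinase, a spindle-assembly protein and a centrosome kinase, fell with the block in SCC1, SCC6 and across lines, with log2 fold changes across lines of −0.76, −0.83 and −0.82.

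Of the genes of ubiquitination and mitotic exit (UBE2C, CDCA3, CDC20 and G2E3), none of 4 fell without the block and 3 with it, and the medians were −1.12 in SCC1, −0.67 in SCC6 and −0.26 in SCC25. UBE2C is the ubiquitin-conjugating enzyme of the anaphase-promoting complex. UBE2C stood at 259 and 313 CPM in the PBS samples of SCC1 against 90.9 and 171 CPM with cetuximab, at 662 and 948 against 462 and 574 CPM in SCC6, and at 348 and 368 against 336 and 274 CPM in SCC25. In TMM-scaled CPM, both cetuximab samples were below both controls in each line (log2 fold change across lines −0.66 ± 0.19 (SE), adjusted p = 0.0736, or 0.0337 with the replicate block). By library total the SCC6 groups of UBE2C overlapped, at 553 and 847 CPM in PBS and 472 and 576 CPM with cetuximab. CDC20 activates the same complex. CDC20 stood at 157 and 236 CPM in the PBS samples of SCC1 against 51.1 and 124 CPM with cetuximab, at 252 and 399 against 139 and 225 CPM in SCC6, and at 195 and 305 against 169 and 203 CPM in SCC25. The groups overlapped in SCC25 (log2 fold change across lines −0.81 ± 0.24 (SE), adjusted p = 0.0849, or 0.0166 with the replicate block). G2E3, a ubiquitin ligase named for its peak in G2, was among the members nearest to 0. G2E3 stood at 22.5 and 19.2 CPM in the PBS samples of SCC1 against 17.7 and 16.1 CPM with cetuximab, at 33.4 and 32.02 against 34.04 and 25.4 CPM in SCC6, and at 31.6 and 22.3 against 26.3 and 18.9 CPM in SCC25. No fit called it (log2 fold change across lines −0.23 ± 0.13 (SE), adjusted p = 0.346, or 0.0775 with the replicate block).

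**Figure D2:**
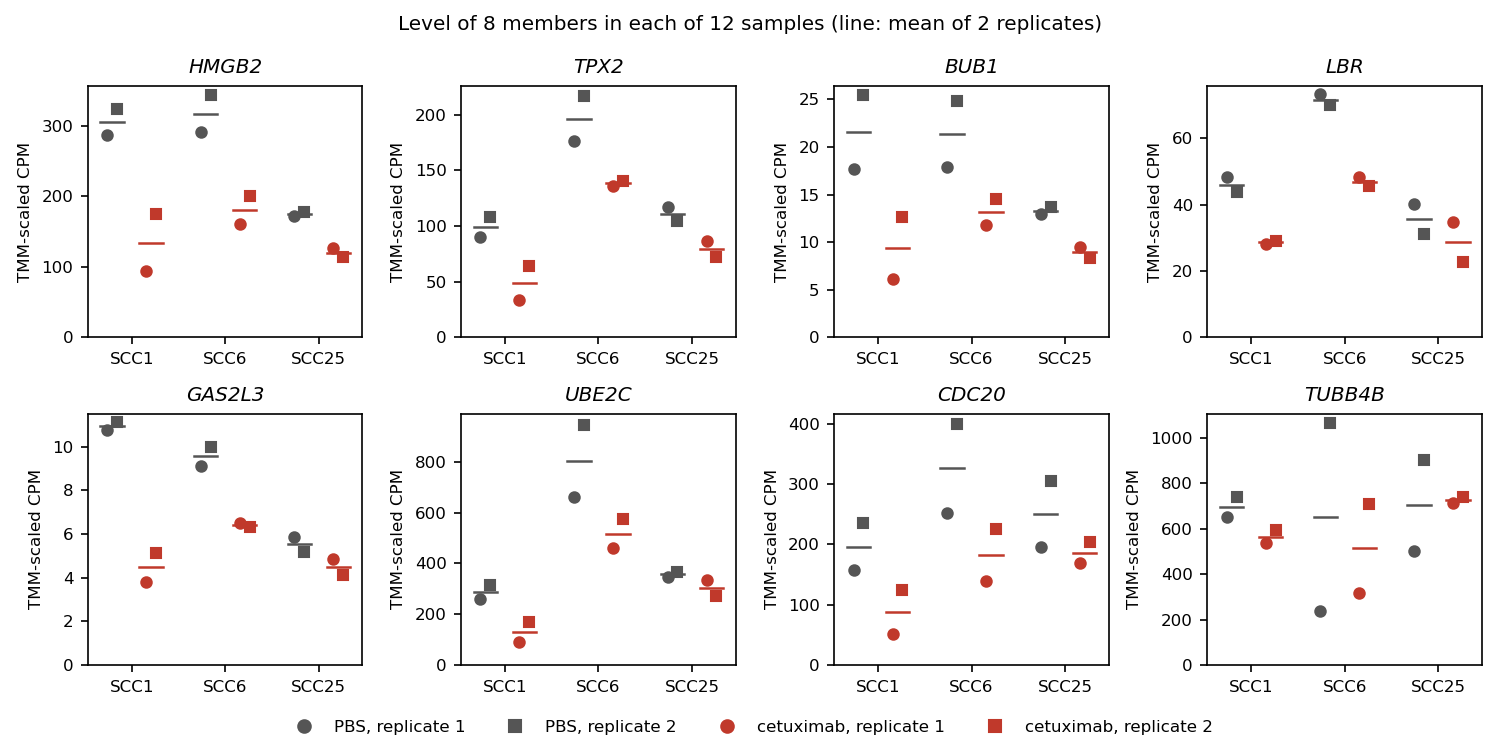
Level of 8 members in each of the 12 samples (y axis, CPM of the TMM-scaled library; x axis, cell line; circles, replicate 1; squares, replicate 2; grey, PBS; red, cetuximab; lines, means of 2). HMGB2, TPX2, BUB1, LBR and GAS2L3 are the 5 members called across lines, and HMGB2 ranges from 94.1 to 344 CPM, while TUBB4B shows the widest gap between 2 controls, 239.5 and 1065 CPM in SCC6.

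The chromosomal passenger complex, which corrects faulty spindle attachments, is represented by BIRC5 (survivin), AURKB and CDCA8. All 3 fell across lines with the block and none without it, with medians of −1.09 in SCC1, −0.48 in SCC6 and −0.28 in SCC25. BIRC5 stood at 183 and 187 CPM in the PBS samples of SCC1 against 54.4 and 112 CPM with cetuximab, at 112 and 122 against 92.4 and 91.6 CPM in SCC6, and at 157 and 129 against 119 and 88.9 CPM in SCC25. In TMM-scaled CPM, BIRC5 did not overlap between groups in any line (log2 fold change across lines −0.65 ± 0.19 (SE), adjusted p = 0.0760, or 0.0435 with the replicate block). By library total the SCC6 groups of BIRC5 overlapped, at 93.4 and 109 CPM in PBS and 94.4 and 92.0 CPM with cetuximab. AURKB stood at 86.7 and 110.2 CPM in the PBS samples of SCC1 against 31.9 and 62.6 CPM with cetuximab, at 99.1 and 184 against 74.6 and 129 CPM in SCC6, and at 81.5 and 104 against 81.9 and 71.2 CPM in SCC25. The AURKB groups overlapped in SCC6 and SCC25 (log2 fold change across lines −0.60 ± 0.23 (SE), adjusted p = 0.154, or 0.0429 with the replicate block).

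Centromere, kinetochore and checkpoint genes (10 members) had medians of −1.08 in SCC1, −0.60 in SCC6 and −0.57 in SCC25. Without the block 1 fell across lines (BUB1), and with it 8. BUB1 is a kinase of the spindle checkpoint. BUB1 stood at 17.6 and 25.4 CPM in the PBS samples of SCC1 against 6.13 and 12.6 CPM with cetuximab, at 17.9 and 24.8 against 11.7 and 14.5 CPM in SCC6, and at 12.9 and 13.7 against 9.52 and 8.31 CPM in SCC25. Its groups were apart in the 3 lines (log2 fold change across lines −0.83 ± 0.19 (SE), adjusted p = 0.0379, or 0.0120 with the replicate block). CENPF, a kinetochore protein that peaks in G2, had the most negative value of all members in SCC1, −1.36 ± 0.34 (SE; adjusted p = 0.242, 0.0153 with the block), and one near 0 in SCC6, −0.10 ± 0.34 (SE; adjusted p = 0.909, 0.771 with the block). CENPF stood at 113 and 135 CPM in the PBS samples of SCC1 against 30.7 and 65.97 CPM with cetuximab, at 199 and 246 against 229 and 185 CPM in SCC6, and at 135 and 103 against 94.4 and 65.9 CPM in SCC25. In SCC6 the first cetuximab sample lay between the controls and the second below both. CENPA, the histone H3 variant of centromeres, was lower in each SCC1 pair and each SCC25 pair. CENPA stood at 88.3 and 90.99 CPM in the PBS samples of SCC1 against 24.8 and 52.5 CPM with cetuximab, at 64.2 and 89.6 against 68.6 and 58.5 CPM in SCC6, and at 69.2 and 48.2 against 40.4 and 32.2 CPM in SCC25. The CENPA groups were apart in SCC1 and SCC25 (log2 fold change across lines −0.73 ± 0.21 (SE), adjusted p = 0.0760, or 0.0479 with the replicate block). NUF2, a part of the NDC80 complex, had the most negative value in SCC6, −0.87 ± 0.49 (SE; adjusted p = 0.358, 0.0179 with the block). NUF2 stood at 29.5 and 46.5 CPM in the PBS samples of SCC1 against 10.3 and 24.2 CPM with cetuximab, at 35.9 and 72.3 against 20.9 and 38.5 CPM in SCC6, and at 28.6 and 48.8 against 27.3 and 30.7 CPM in SCC25. Here the spread between replicates was wide, and the SCC6 groups overlapped. TTK, the checkpoint kinase also called MPS1, had the most negative value in SCC25, −0.71 ± 0.82 (SE; adjusted p = 1, 0.155 with the block). TTK stood at 10.6 and 26.8 CPM in the PBS samples of SCC1 against 4.29 and 15.3 CPM with cetuximab, at 5.84 and 16.2 against 3.83 and 10.6 CPM in SCC6, and at 6.83 and 22.3 against 5.31 and 12.6 CPM in SCC25. Replicate 2 was above replicate 1 in all 6 groups, and no line had separate groups. CENPE, a kinetochore motor, had the most negative value across lines. CENPE stood at 19.3 and 32.7 CPM in the PBS samples of SCC1 against 6.49 and 16.1 CPM with cetuximab, at 15.1 and 35.7 against 12.3 and 18.96 CPM in SCC6, and at 35.5 and 45.4 against 23.7 and 25.9 CPM in SCC25. It passed the threshold with the block (log2 fold change across lines −0.87 ± 0.27 (SE), adjusted p = 0.0872, or 0.0137 with the replicate block). RANGAP1, which also serves nuclear transport in interphase, was above 0 in SCC25, 0.15 ± 0.21 (SE; adjusted p = 1, 0.708 with the block). RANGAP1 stood at 24.05 and 22.2 CPM in the PBS samples of SCC1 against 17.7 and 18.6 CPM with cetuximab, at 57.1 and 46.1 against 31.7 and 34.6 CPM in SCC6, and at 43.2 and 36.99 against 51.4 and 37.7 CPM in SCC25. In SCC6 both cetuximab samples were below both controls, −0.64 ± 0.21 (SE; adjusted p = 0.124, 0.0220 with the block).

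Members with known interphase roles at the nuclear envelope or in chromatin (TMPO, ANP32E, LBR, CTCF and CBX5) had medians of −0.68 in SCC1, −0.17 in SCC6 and −0.28 in SCC25. Across lines 1 of the 5 fell without the block and 3 with it (LBR, TMPO and CTCF). LBR, the lamin B receptor, fell in both fits (log2 fold change across lines −0.53 ± 0.13 (SE), adjusted p = 0.0426, or 0.0119 with the replicate block). LBR stood at 48.2 and 43.8 CPM in the PBS samples of SCC1 against 28.2 and 29.1 CPM with cetuximab, at 73.2 and 70.04 against 48.2 and 45.6 CPM in SCC6, and at 40.1 and 30.99 against 34.8 and 22.6 CPM in SCC25. The LBR groups were apart in SCC1 and SCC6. ANP32E is a chaperone that removes the histone variant H2A.Z. ANP32E stood at 127 and 125 CPM in the PBS samples of SCC1 against 81.1 and 89.4 CPM with cetuximab, at 82.4 and 87.5 against 76.4 and 73.7 CPM in SCC6, and at 97.1 and 75.8 against 92.2 and 62.002 CPM in SCC25. In TMM-scaled CPM the ANP32E groups were apart in SCC1 and SCC6 and overlapped in SCC25. By library total the SCC6 groups of ANP32E overlapped too, and per thinned cell its SCC6 difference was 0.044 (log2). In SCC1 the log2 fold change of ANP32E was −0.56 ± 0.22 (SE; adjusted p = 0.492, 0.0454 with the block). Neither fit called ANP32E across lines (log2 fold change across lines −0.30 ± 0.13 (SE), adjusted p = 0.195, or 0.0621 with the replicate block). CBX5, which encodes heterochromatin protein 1 alpha, was the only member above 0 in SCC6, 0.20 ± 0.28 (SE; adjusted p = 0.749, 0.425 with the block). In SCC1 CBX5 was the lowest of these 5, −0.90 ± 0.29 (SE; adjusted p = 0.370, 0.0209 with the block), where the median of all members was −1.02. CBX5 stood at 80.9 and 83.1 CPM in the PBS samples of SCC1 against 34.7 and 52.97 CPM with cetuximab, at 76.2 and 69.6 against 96.1 and 71.9 CPM in SCC6, and at 146 and 98.9 against 119 and 81.99 CPM in SCC25. Its sign in SCC6 turned in 1 of the 12 fits that left out a sample.

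The cytokinesis genes (KIF20B, ECT2, KIF23 and ANLN) had medians of −0.80 in SCC1, −0.35 in SCC6 and −0.32 in SCC25, and all 4 fell across lines with the block, none without it. ANLN, which binds actin at the cleavage furrow, had small differences outside SCC1. ANLN stood at 31.5 and 38.6 CPM in the PBS samples of SCC1 against 15.5 and 25.9 CPM with cetuximab, at 76.2 and 72.7 against 55.3 and 66.2 CPM in SCC6, and at 48.5 and 38.95 against 43.5 and 31.7 CPM in SCC25. The ANLN groups overlapped in SCC25 (log2 fold change across lines −0.42 ± 0.16 (SE), adjusted p = 0.151, or 0.0479 with the replicate block). KIF20B is a motor of the central spindle. KIF20B stood at 53.2 and 79.3 CPM in the PBS samples of SCC1 against 26.2 and 49.1 CPM with cetuximab, at 39.99 and 87.2 against 35.2 and 57.3 CPM in SCC6, and at 36.99 and 54.6 against 26.5 and 34.7 CPM in SCC25. As for TTK, replicate 2 was above replicate 1 in every group (log2 fold change across lines −0.62 ± 0.23 (SE), adjusted p = 0.152, or 0.0145 with the replicate block).

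By line, the members differed most in SCC1. All 53 had values below 0 there (median −1.02, from −1.36 to −0.30), and the cetuximab samples were both below both controls for 50, against 20.4% of all genes. None passed the adjusted threshold without the block, when 0.0% of all genes were called lower, although 41 had an unadjusted p under 0.05 (8.77% of all genes) and DESeq2 called 9 (0.402% of all genes lower). Without the filter on low counts 7 were called (0.178% of all genes lower). With the block 47 fell, against 1.99% of all genes, and CKS2, TUBB4B, RANGAP1, CKAP5, CTCF and G2E3 did not pass. The median rested on the first cetuximab replicate, being −0.64 without it and −1.62 without the second.

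In SCC6 the median was −0.46 (from −0.87 to 0.20), with 52 members below 0, and the groups were apart for 23 of 53, against 21.4% of all genes. No member was called without the block (1.3% of all genes lower), 4 had an unadjusted p under 0.05 (19.9% of all genes), and DESeq2 called 2 (4.3%). With the block 14 fell, against 10.1% of all genes, namely HMGB2, UBE2C, NUF2, CKAP2L, BUB1, CDCA3, CDC20, TTK, RANGAP1, HMMR, AURKA, LBR, NEK2 and GAS2L3. Without the second PBS replicate the median was −0.17 and 36 members were below 0, and without the second cetuximab replicate it was −0.71.

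In SCC25 the median was −0.42 (from −0.71 to 0.15), with 51 members below 0 and the groups apart for 29, against 15.3% of all genes. No member was called in SCC25, with 0% of all genes lower without the block and 0.207% with it, no member had an unadjusted p under 0.05 (5.82% of all genes), and DESeq2 called none (0.101%). A line-by-treatment interaction term tested whether the change differed between lines. It called no member without the block (0.0% of all genes), with the block (1.29%) or by DESeq2 (1.54%), and 1 member had an unadjusted p under 0.05 without the block. The larger values of SCC1 were thus not shown gene by gene to differ from those of the other lines.

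The level of the members in untreated cells was compared between the lines by the same test. Between SCC6 and SCC1 controls 9 members differed (40.2% of all genes), between SCC25 and SCC1 7 (40.8%), and between SCC25 and SCC6 9 (40.9%). Without the filter on low counts the last number was 14 (29.6%). RANGAP1 and CKS2 were higher in both SCC6 and SCC25 than in SCC1 (CKS2 log2 fold change 1.65 ± 0.31 and 1.52 ± 0.31, SE), and CKAP2, a microtubule-associated protein, was lower in both (−0.72 ± 0.23 and −0.86 ± 0.23, SE). UBE2C, TPX2, ANLN, LBR and CKAP5 were higher in SCC6 than in SCC1 and lower in SCC25 than in SCC6. UBE2C was at 805 ± 202 CPM in SCC6 controls (SD, n = 2) and 286 ± 38.3 CPM in SCC1 controls (SD, n = 2). PSRC1, a regulator of spindle microtubules, was lower in SCC6 than in both other lines, and HMGB2 and GAS2L3 were lower in SCC25 than in both others. HMMR was higher and TACC3 lower in SCC25 than in SCC1, and GTSE1 was lower in SCC25 than in SCC6.

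Sums over cells cannot tell fewer cells in G2 and mitosis from less RNA of these genes per cell. The members were also counted in single cells. Each cell was thinned to 15000 UMIs, which left out 851 shallower cells (56 to 276 per group) and kept 23063. Cells had 17.1 members detected on average with cetuximab and 22.4 in PBS (mean of the 6 samples each), 5.38 fewer, and fewer in 6 of 6 pairs. The exact two-sided permutation test within lines gave p = 0.0278, and its smallest possible p was 0.00926. With treatment flipped within pairs p was 0.03125, the smallest that test allows. The median number of members per cell was 13 to 28 in the PBS samples and 8 to 19 in the cetuximab samples. Cells with 10 or more members made up 63.1% to 88.4% of the PBS samples and 37.6% to 75.6% of the cetuximab samples. In each pair of equal replicate number, the cetuximab sample had more cells below 10 members. Between the pairs of SCC25 the order could turn, since 64.9% of the cells of cetuximab replicate 1 and 63.1% of PBS replicate 2 had 10 or more.

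**Figure D3:**
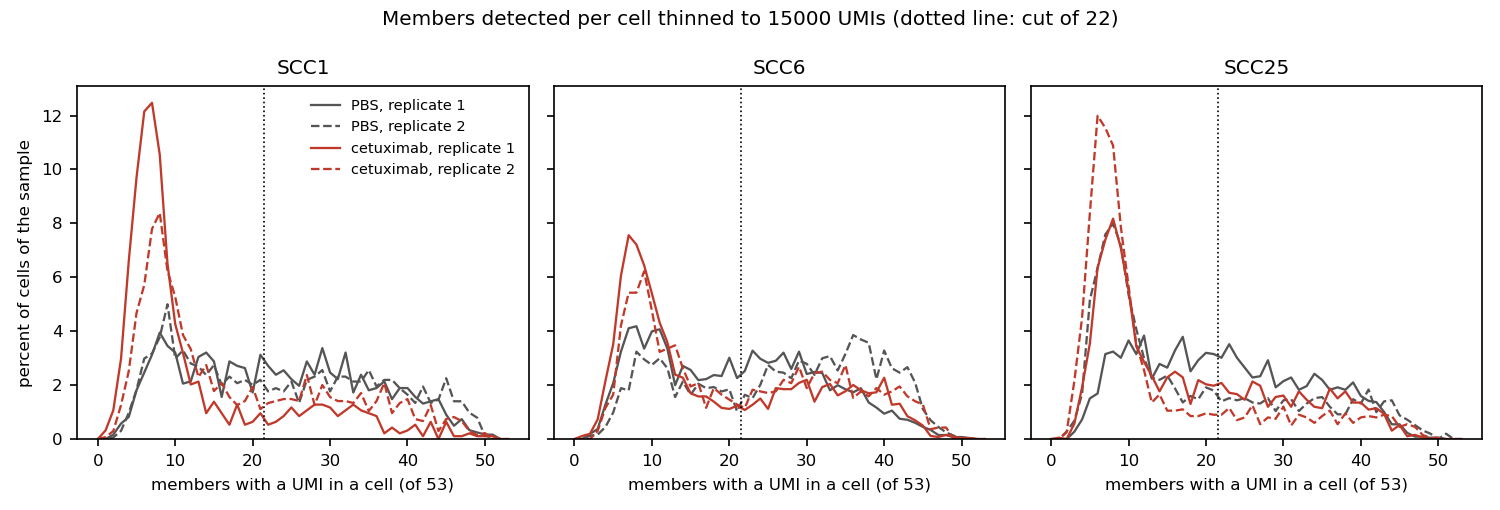
Number of members with a UMI per cell thinned to 15000 UMIs (x axis, of 53) and percent of the cells of each sample (y axis) in SCC1, SCC6 and SCC25, with the dotted line at the cut of 22 members. Solid lines are replicate 1 and dashed lines replicate 2, red is cetuximab and grey is PBS. Each red curve holds more cells below 10 members than the grey curve of the same line and replicate number. Of the cells of cetuximab replicate 1 of SCC1, 18.8% are at or beyond the cut.

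A cell with 22 or more of the 53 members was counted as being in the G2 and mitosis state, a range of a score and not a cell type. S-phase genes were also higher inside this state. Of the 41 listed below 34 were measured, and all 34 had a mean log2 difference above 0. Their median in a sample was 0.31 to 2.48, against 0.0059 to 0.069 for all 7016 genes measured. The share thus cannot be read as cells in G2 and mitosis alone, and how many of its cells were in S phase was not tested. Since the cut is made on the members themselves, a cell with less of their RNA also counts as outside, and a smaller share cannot be told apart from less RNA per cell. In SCC1 the state held 52.4% (exact 95% interval 49.6 to 55.3) and 52.2% (49.7 to 54.6) of PBS cells and 18.8% (16.3 to 21.4) and 34.4% (31.8 to 36.98) of cetuximab cells. In SCC6 it held 48.1% (46.2 to 49.999) and 64.2% (62.2 to 66.1) of PBS cells and 38.3% (36.4 to 40.2) and 46.7% (44.2 to 49.1) of cetuximab cells. In SCC25 it held 49.2% (47.1 to 51.3) and 33.8% (31.9 to 35.7) of PBS cells and 34.4% (32.2 to 36.5) and 20.9% (19.1 to 22.7) of cetuximab cells. The groups did not overlap in SCC1 and SCC6, and in SCC25 the first cetuximab sample exceeded the second control, although both pairs of equal number were lower with cetuximab. These intervals cover counting error of cells only, and replicates of 5 of the 6 groups differed beyond them. Over the 3 lines the share was 32.2% with cetuximab and 49.97% in PBS, a difference of −17.8 percentage points (exact two-sided permutation test within lines, p = 0.0185, or 0.03125 by sign-flip over pairs, lower in 6 of 6 pairs). SCC1 differed by −25.7 points, SCC6 by −13.6 and SCC25 by −13.9, and with 2 samples against 2 the exact permutation test cannot reach 0.05 within 1 line.

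**Figure D4:**
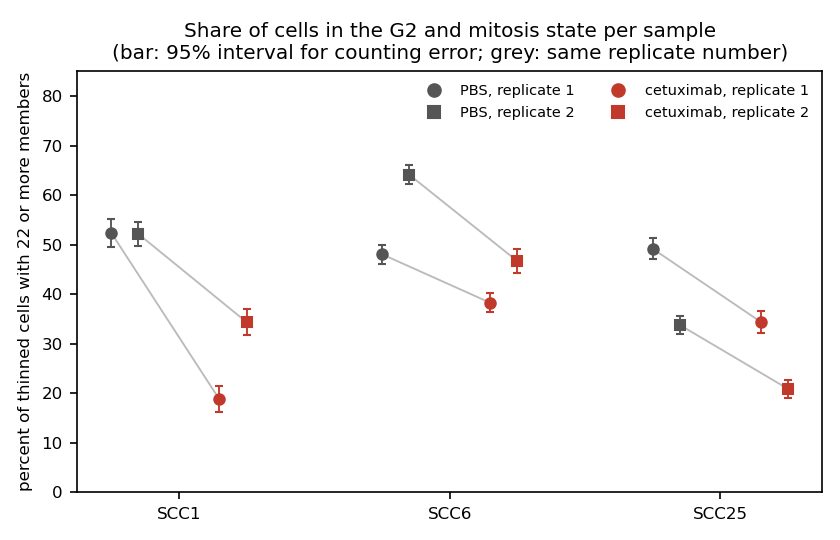
Share of thinned cells with 22 or more of the 53 members in each of the 12 samples (y axis, percent; bars, exact 95% intervals for counting error; grey lines join samples of equal replicate number). All 6 lines slope down from PBS to cetuximab, from 52.4% to 18.8% in the steepest.

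Without thinning, and with the cut of 30 members that the same rule then gave, the share was 61.6% and 62.8% against 24.7% and 43.3% in SCC1, 52.2% and 67.4% against 34.8% and 53.9% in SCC6, and 49.5% and 38.98% against 38.4% and 25.3% in SCC25. Between 3.62% and 15.9% of the cells of a sample lay within 2 members of the cut. Cells outside the state had members too. UBE2C had a UMI in 34.5% of them and in 91.6% of cells in the state (means of 12 samples), and GAS2L3 in 1.22% and 16.6%. The cultures hold no cell type that lacks these genes, so the share that free RNA gives was not measured. Cells in the state had 1.24 to 1.59 times the median UMIs of cells outside it, in each of the 12 samples, before thinning. Of the 5% of cells with most UMIs, where doublets would lie, 18.4% to 84.8% were in the state. No doublet caller was run, and leaving those cells out kept the difference in share and its p under 0.05.

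The members' levels were then read inside and outside the state, each member with the state set by the other 52. CENPE had the largest contrast, 0.726 UMIs per thinned cell inside and 0.0365 outside (means of 12 samples, a ratio of 19.9), followed by TOP2A (ratio 17.98), HMMR (16.8) and UBE2C (16.5). CTCF, a chromatin insulator protein of all cells, had the smallest ratio, 1.45, followed by CBX5 (1.90), RANGAP1 (1.96) and LBR (2.20). The 8 members with a ratio under 3 (ANP32E, CBX5, CKAP5, CTCF, G2E3, LBR, RANGAP1 and TUBB4B) had median cetuximab changes of −0.48 in SCC1, −0.17 in SCC6 and −0.21 in SCC25 (log2). The 19 members with a ratio of 3 to 10 had −0.91, −0.44 and −0.43, and the 26 with a ratio of 10 or more had −1.12, −0.56 and −0.47. Across the 53 genes the ratio and the change across lines had Pearson's r = −0.70 and Spearman's rho = −0.68. Genes are not independent replicates, and both measures come from the same 12 libraries and partly the same UMIs, so this is a description without a test.

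The same cut sets both compartments, so the values inside and outside the state are descriptions that depend on it. The median log2 difference between cetuximab and PBS inside the state was −0.15 for SCC1, 0.09 for SCC6 and 0.0045 for SCC25, and over all thinned cells it was −0.94, −0.32 and −0.51. Inside the state 44, 17 and 26 of the 53 members were below 0. Outside the state the medians were −0.83, −0.48 and −0.52, with 49, 45 and 48 members below 0. Inside the state, both cetuximab samples were below both controls for 17 members in SCC1 (12.1% of 7016 genes at 0.2 UMIs per cell or more), 2 in SCC6 (13.4%) and 1 in SCC25 (6.53%). They were above for 3 members in SCC1 (22.3%), 9 in SCC6 (28.5%) and 3 in SCC25 (15.5%). HMGB2 was below in SCC1 and SCC6 and CDK1 above in SCC1. ANLN was above in all 3 lines (log2 differences 0.22 in SCC1, 0.25 in SCC6 and 0.39 in SCC25). CDKN3 in SCC1 had the lowest value inside the state (−0.47) and CBX5 in SCC6 the highest (0.67). Thinned cells held 78.2 UMIs of the members on average in SCC1 PBS samples and 44.2 with cetuximab, 79.8 and 65.1 in SCC6, and 66.4 and 52.1 in SCC25.

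**Figure D5:**
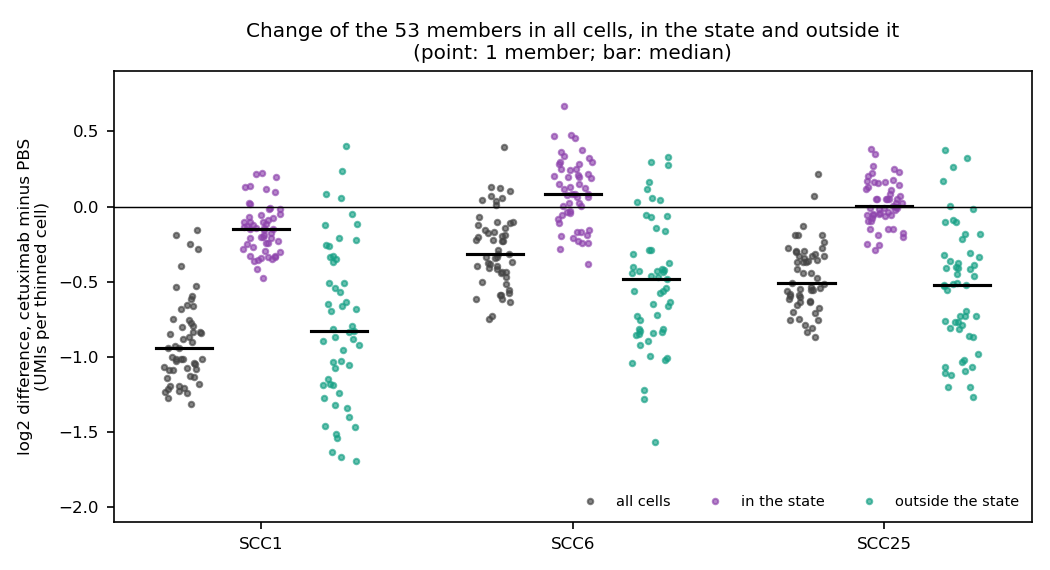
Log2 difference of each member between cetuximab and PBS (y axis, UMIs per thinned cell, means of 2 samples) in all cells, in cells in the G2 and mitosis state and in cells outside it, for the 3 lines. Bars are medians, which inside the state are −0.15, 0.09 and 0.0045 and outside it −0.83, −0.48 and −0.52.

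The summed CPM of the members (of the library total), in which abundant genes such as TUBB4B weigh most, was 5921 ± 258 in SCC1 PBS and 3308 ± 1035 with cetuximab (SD, n = 2 each), 5797 ± 1966 and 4906 ± 686 in SCC6, and 5106 ± 6.80 and 4202 ± 461 in SCC25. On the log2 scale the difference was −0.46 (exact two-sided permutation test within lines, p = 0.0463) and was lower in 5 of 6 pairs (sign-flip over pairs, p = 0.0625). In the pair that was not lower, replicate 1 of SCC6, the sums were 4407 in PBS and 4421 with cetuximab.

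Genes outside the 53 were read from 4 lists. Of 50 other G2 and mitosis genes, 5 fell across lines and 35 with the block, against 1.13% and 5.55% of all genes. None of the 50 rose, and the medians were −1.02 in SCC1, −0.37 in SCC6 and −0.47 in SCC25. Among them CCNB1, the main mitotic cyclin, had a log2 fold change across lines of −0.75 ± 0.38 (SE), adjusted p = 0.284, or 0.0197 with the block. PLK1, a mitotic kinase, had −0.86 ± 0.31 (SE), adjusted p = 0.133, or 0.0188 with the block. CCNA2, the cyclin of S and G2, had −0.61 ± 0.19 (SE), adjusted p = 0.0949, or 0.0260 with the block. The genes of smallest p were DEPDC1 (−0.82 ± 0.16 (SE), adjusted p = 0.0196, or 0.0155 with the block), CDC25B, a phosphatase that activates CDK1 (−0.80 ± 0.18 (SE), adjusted p = 0.0361, or 0.00738 with the block), and TROAP, a spindle protein (−0.77 ± 0.18 (SE), adjusted p = 0.0365, or 0.0166 with the block).

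Of 41 S-phase genes, 1 fell across lines (1.13% of all genes), namely E2F8, which is also in the list of regulators. With the block 15 fell (5.55% of all genes). The medians were −0.70, −0.28 and −0.29 in SCC1, SCC6 and SCC25. PRIM1, the DNA primase, had −0.60 ± 0.15 (SE), adjusted p = 0.0530, or 0.0155 with the block, and POLD3, a subunit of DNA polymerase delta, −0.43 ± 0.12 (SE), adjusted p = 0.0668, or 0.0274 with the block. Subunits and regulators of the anaphase-promoting complex had medians of −0.13, −0.21 and −0.14 in SCC1, SCC6 and SCC25. Of these 17 genes none passed without the block (1.13% of all genes lower). With the block 2 fell (5.55% of all genes), UBE2S (−0.66 ± 0.17 (SE), adjusted p = 0.0582, or 0.0225 with the block) and ANAPC11 (−0.28 ± 0.10 (SE), adjusted p = 0.141, or 0.0328 with the block). ANAPC15 had −0.32 ± 0.14 (SE), adjusted p = 0.218, or 0.141 with the block. Of 19 regulators of cell cycle transcription and arrest, 2 fell (1.13% of all genes) and 1 rose across lines. CDKN1A, which encodes the inhibitor p21, was the one that rose (0.69 ± 0.14 (SE), adjusted p = 0.0244, or 0.0157 with the block), while E2F8, a repressor of the E2F family, fell (−0.66 ± 0.15 (SE), adjusted p = 0.0364, or 0.0272 with the block), as did TFDP1, the dimer partner of most E2F proteins (−0.47 ± 0.11 (SE), adjusted p = 0.0347, or 0.0166 with the block). FOXM1, an activator of G2 and mitosis genes, had −0.54 ± 0.18 (SE), adjusted p = 0.120, or 0.0609 with the block, and MYBL2, its partner in the same programme, −0.19 ± 0.22 (SE), adjusted p = 0.665, or 0.535 with the block, with a value above 0 in SCC6 (0.39). No list was tested against other genes.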

How the data were processed

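UMI counts per gene and cell were deposited as 3 count matrices, 1 per line, made by the authors with Cell Ranger and GRCh38 per the labels (version not given in the sources used here) from 10x Genomics 3′ v2 libraries that aimed for 5000 cells each. Here the counts were summed per sample, since cells are not replicates. edgeR 4.0.16 (R 4.3.3; TMM, filterByExpr, quasi-likelihood F-test on 6 group means with 6 residual degrees of freedom, or line and treatment across lines) tested 17897 of 25899 detected genes at a Benjamini-Hochberg adjusted p of 0.05. The SE of a log2 fold change was its size divided by the square root of F. DESeq2 1.42.0 and the replicate number within a line as a block were alternatives. The numbers were taken to pair the samples, because deviations from the group means correlated between equal numbers over all genes (r = 0.377 in SCC1, 0.349 in SCC6 and 0.598 in SCC25). Untreated lines were compared without the block.

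Cells were thinned to 15000 UMIs without replacement, and the cut of 22 members came from Otsu's rule with equal weight per sample. Single values per sample were compared by exact permutation within lines (216 arrangements). Each member was read against a state set by the other 52, and other genes were read from 0.2 UMIs per cell upward. No cell was otherwise filtered. HMGB2, CKS1B, CKS2, TUBB4B, ANP32E and CBX5 have close copies in the genome, and how shared reads were counted is not given in the sources used here, so their counts are less certain. Library-total scaling moved the median of all genes in SCC6 by 0.10 (log2), and TMM left it at 0. The TMM factors of SCC6 were 0.835 and 0.894 in PBS and 1.022 and 1.005 with cetuximab, so TMM made the SCC6 falls larger than library totals do. Whether the SCC6 groups were apart could depend on this scaling, as it did, for example, for BIRC5, UBE2C and ANP32E.

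The members, their roles and the other lists were chosen with earlier results of these data known. Values per sample were given by rule for the 2 members of highest mean CPM in each role and the 3 lowest and 3 highest log2 fold changes in each line, and for fixed genes of the other lists with up to 3 of smallest p. The edgeR and DESeq2 fits were tested on simulated counts. Figures were drawn with matplotlib 3.10.9.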

Additional observations from a re-analysis of the deposited data

How the results depend on the processing

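With 2 samples a group, single samples weighed heavily. The share of cells in the state kept its direction and its p under 0.05 under every alternative run, and without 1 sample it ranged from −20.4 to −15.1 points. Members detected per cell ranged from −6.29 to −4.47 (p = 0.0556, exact permutation, without PBS replicate 2 of SCC1). The summed CPM was −0.46 (p = 0.0625) with the replicate block as sign-flip over pairs, and ranged from −0.57 to −0.34 without 1 sample (exact permutation p from 0.00926 to 0.1204).

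Called members in SCC1 numbered 0, or 47 with the replicate block (1.99% of all genes lower), 9 by DESeq2 (0.402%) and 7 without the low-count filter (0.178%). In SCC6 they numbered 0 (1.3% of all genes lower), or 14 with the block (10.1%) and 2 by DESeq2 (4.3%). Of all genes, 5.55% were called lower across lines with the block and 4.18% by DESeq2. These shares are also the base for the counts of the other lists below. Across lines the count of 5 became 41 with the block, 24 by DESeq2, 22 without the filter (1.28% of all genes), 12 without the 5% of cells with most UMIs (1.29%) and 13 on thinned cells (1.56%), and 0 to 10 without 1 sample. Without 1 sample no member was called within a line (0 to 0) or by the interaction (0 to 0). Which of these steps cause the differences was not tested beyond the changed number of samples. Untreated SCC25 and SCC6 differed in 14 members without the filter (29.6% of all genes), and without 1 sample the 3 contrasts gave 3 to 11 (SCC6 and SCC1), 3 to 8 (SCC25 and SCC1) and 4 to 12 (SCC25 and SCC6).

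S-phase genes called numbered 15 with the block, 9 by DESeq2, 3 without the filter, 3 on thinned cells and 0 to 1 without 1 sample. The anaphase-promoting complex gave 2 with the block, 1 by DESeq2, 1 without the filter, 1 without the 5% of cells with most UMIs and 0 to 1 without 1 sample. Other G2 and mitosis genes gave 35 with the block, 24 by DESeq2, 12 without the filter, 3 without cells over 20% mitochondrial UMIs and 0 to 5 without 1 sample, and the regulators 5 by DESeq2 and 0 to 2 without 1 sample, against 3 (all counts are of calls in either direction).

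Among the fits, signs of the genes named by rule turned only when 1 sample was left out. This held for TUBB4B across lines (−0.37 to 0.15) and in SCC25 (−0.32 to 0.54), CENPF in SCC6 (−0.26 to 0.054), NCAPD2 in SCC6 (−0.16 to 0.036), CBX5 in SCC6 (−0.020 to 0.39), ANP32E in SCC25 (−0.47 to 0.091), RANGAP1 in SCC25 (−0.076 to 0.36) and TTK in SCC25 (−1.46 to 0.39). In UMIs per thinned cell, without TMM, 44 members were below 0 in SCC6, against 52 in the fit. There CENPF (0.069), NCAPD2 (0.10), G2E3 (0.13) and ANP32E (0.044) stood above 0 with no sample left out.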

Other observations

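Genes outside the 4 lists also differed between cells in and outside the G2 and mitosis state. Among 7016 genes at 0.2 UMIs per thinned cell or more, PIF1, a DNA helicase, and CEP55, a protein of the midbody, stood 4.34 and 3.14 higher in the state on the log2 scale (mean of 12 samples, higher in 12 of 12). NEAT1, a nuclear long non-coding RNA, was at 11.96 UMIs per cell in the state and 26.7 outside it. The keratins KRT15 and KRT16 of stratified epithelium were lower in the state (−1.10 and −1.32 on the log2 scale, in 12 of 12 samples). Histone genes went both ways. HIST1H2BD was at −1.45 in the state relative to the rest (lower in 12 of 12 samples) and HIST1H4H at −1.78 (lower in 11 of 12). HIST1H1A, HIST1H1D, HIST1H1B and HIST1H4C were at 2.68, 2.39, 2.33 and 2.19 (each higher in 12 of 12). The 7 squamous epithelial markers had medians of −0.44 to 0.04 between the state and the rest over the 12 samples. These genes were picked from the extremes after their values were seen, and no test was run.

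The replicate number left its own pattern among the members. Replicate 2 was above replicate 1 in all 6 groups for 19 of the 53, against 14% of all genes tested, and these included NDC80, TTK, CCNB2 and TUBB4B. NDC80, the outer kinetochore protein, had 12.9 and 40.6 CPM in SCC1 with cetuximab and 31.4 and 68.9 CPM in the controls of that line. Replicate 1 was above replicate 2 in all 6 groups for CTCF and G2E3, against 14.6% of all genes. The number separates replicates of every line, and what else separated them (day, batch or culture) is not in the labels.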
